A study of Mus musculus with 16 samples.

Results

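The genes described here are 7 genes of the megakaryocyte and its platelets, measured in mouse offspring liver: the integrin pair Itga2b and Itgb3, the activation receptors Treml1, Clec1b and Gp6, and the granule chemokines Ppbp and Pf4. They were taken by name from the array annotation, where Ppbp is called Cxcl7 and Pf4 is called Cxcl4, and they are 7 of the 18727 genes that could be tested. They were chosen by their difference between exposed and control females, on these same arrays. The female values are therefore given as a description, with no test.

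RNA from the liver of 16 C57BL/6BomTac offspring, each on an array of its own, was hybridised against universal mouse reference RNA. The dams had been time-mated and had breathed either filtered air or air with about 42 mg/m3 of the nano-titanium dioxide UV-Titan, by whole-body exposure, in daily sessions of 1 hour from gestation day 8 to 18. There were 4 groups: 3 females and 4 males of air-breathing dams (control), and 5 females and 4 males of UV-Titan dams. All were of the same strain, and animals are numbered as in the labels. The labels do not tell whether an animal was killed as a newborn on postnatal day 2 or at weaning on postnatal days 23 to 24, and which animals were littermates, so p-values measure the spread between these animals alone.

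Megakaryocytes are the large precursor cells that shed platelets. In rodents they are found in the fetal and newborn liver while it makes blood, and later mainly in bone marrow and spleen, and platelets carry megakaryocyte RNA in the blood that any piece of liver contains. Integrin alpha IIb (Itga2b) and integrin beta 3 (Itgb3) join into the platelet receptor for fibrinogen. The collagen receptor glycoprotein VI (Gp6) and the podoplanin receptor CLEC-2 (Clec1b) start platelet activation through the kinase Syk, and TLT-1 (Treml1) lies in the alpha granule membrane and reaches the surface on activation. Platelet basic protein (Ppbp) and platelet factor 4 (Pf4) are chemokines released from the same granules. In these bulk samples fewer cells of a type and less RNA per cell cannot be told apart.

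The probes are 60-base oligonucleotides, and the opening 30 bases of each are shown because every value below is the signal of that probe alone. Positions are given in build mm7, as the array files have them, and the files do not say which exon or untranslated region a probe lies in.
Itga2b, chr11:102567178-102567386, minus strand: acccggataggaatcacaatgctggtgagt
Itgb3, brighter probe, chr11:104779399-104779458, plus strand: ccacagcaacatcagagtctttgtccattt
Itgb3, transcript probe, chr11:104776217-104776287, plus strand: tgggactctctgccattatgtttacagagg
Treml1, chr17:46511708-46511767, plus strand: tatcttggtttggtgcagtcagggagtggt
Clec1b, chr6:129428509-129428568, plus strand: ttacttaatatgtgagagaaatgctggcat
Gp6, chr7:3926779-3926838, minus strand: atggacatcaccactagagccacagacatg
Ppbp, chr5:90741218-90741277, plus strand: ctggtcatgaccatgtttttccaatttctt
Pf4, chr5:90744523-90744582, plus strand: ctggagagttaggtatcagctgcctaaatg
The Itga2b probe covers 209 genomic bases with 60 bases of sequence, so its position skips a stretch of genome. The Gp6 probe was designed on a predicted transcript. Itgb3 has 2 probes, and they are not of the same record. The brighter probe, which stands for the gene by the rule of the highest liver signal, was designed on a cDNA clone from embryonic gonad whose product is described as unclassifiable, and it lies 3182 bases further along the chromosome than the probe of the Itgb3 transcript. The Ppbp and Pf4 probes lie 3305 bases apart, as neighbouring chemokine genes.

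Promoters of 6 of the 7 genes, all but Itgb3, were matched in the RefSeq table used here (build GRCm38.p6). The 250 bases before the start were searched on both strands for short core motifs of factor families known in megakaryocytes. The motif searched for the GATA family was GATAA, that for the ETS family was AGGAAG and that for the RUNX family was TGTGGT. The GATA motif was found before 2 of the 6 genes, against 22.6% of 32851 promoters of that length, and the ETS motif before 2 of the 6, against 29.5%. The RUNX motif was found before 0 of the 6, against 14% of the promoters. With 6 promoters these counts are a description, and a match is only a run of letters. The promoters of the receptors Clec1b and Gp6, with the GATA motif on either strand in capitals, and that of Itga2b, with the ETS motif in capitals, are shown because they hold 6 of the 7 matches.
Clec1b, chr6:129397047-129397296, plus strand: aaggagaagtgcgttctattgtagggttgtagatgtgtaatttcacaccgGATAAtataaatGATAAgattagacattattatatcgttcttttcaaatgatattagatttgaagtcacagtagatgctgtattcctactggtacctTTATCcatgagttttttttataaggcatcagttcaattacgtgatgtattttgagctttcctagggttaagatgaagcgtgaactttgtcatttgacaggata
Gp6, chr7:4397745-4397994, minus strand: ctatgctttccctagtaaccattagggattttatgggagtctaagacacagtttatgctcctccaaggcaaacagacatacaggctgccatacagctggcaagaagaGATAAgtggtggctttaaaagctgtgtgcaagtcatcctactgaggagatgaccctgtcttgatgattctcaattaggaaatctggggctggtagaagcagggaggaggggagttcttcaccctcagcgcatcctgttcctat
Itga2b, chr11:102469884-102470133, minus strand: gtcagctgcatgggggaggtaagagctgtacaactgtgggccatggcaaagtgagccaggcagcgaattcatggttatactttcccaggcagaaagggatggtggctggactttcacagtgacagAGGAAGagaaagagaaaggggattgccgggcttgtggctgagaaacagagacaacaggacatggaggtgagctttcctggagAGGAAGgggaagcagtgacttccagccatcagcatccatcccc
Clec1b holds 3 matches to the GATA motif, beginning 200, 188 and 103 bases before the start, the last on the opposite strand. Gp6 holds 1 such match, 143 bases before the start, and Itga2b holds the ETS motif 125 and 43 bases before it. The match of Pf4, to the ETS motif on the opposite strand, begins 9 bases before the start.

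Red was read as the liver channel. The label fields and the labelling protocol give opposite dyes, and the median log2 red over green of 17 hepatocyte markers lay between 4.42 and 5.47 on the 16 arrays, while Xist and Ddx3y separated the sexes in red only. All 7 genes were well above background in red on 16 of 16 arrays. In green, the reference, 6 of them were above background on 16 arrays and Gp6 on 7, so the ratio of Gp6 rests on a dim reference signal (6.09 log2, mean of 16 arrays). The next dimmest references were those of Clec1b (6.25 log2) and Ppbp (6.63 log2). The share of spots above background in red was 57.7% to 67.1%. Male controls 31 and 33 stood apart by exocrine pancreas markers and male UV-Titan 5 by skeletal muscle markers, and female controls 35 and 25 had the lowest array weights (0.42 and 0.59).

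In females every one of the 7 genes had a higher mean with UV-Titan than with filtered air, in the ratio and in red alone. The ratio differences ran from 0.36 log2 (Pf4) to 0.66 log2 (Itga2b), folds of 1.28 to 1.58, and the mean over the genes was 0.52 log2 higher. The share of all genes with a higher mean ratio in exposed females was 58.7%, and in red alone 49.8%. For 6 of 7 genes every UV-Titan array lay above every control array in the ratio (3.23% of all genes), and for 6 of 7 in red (1.08%). These counts describe the comparison from which the genes were chosen. limma with Benjamini-Hochberg adjustment called 0% of all genes in this comparison (0 of 18727, with 1264 at an unadjusted p below 0.05).

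**Figure D1:**
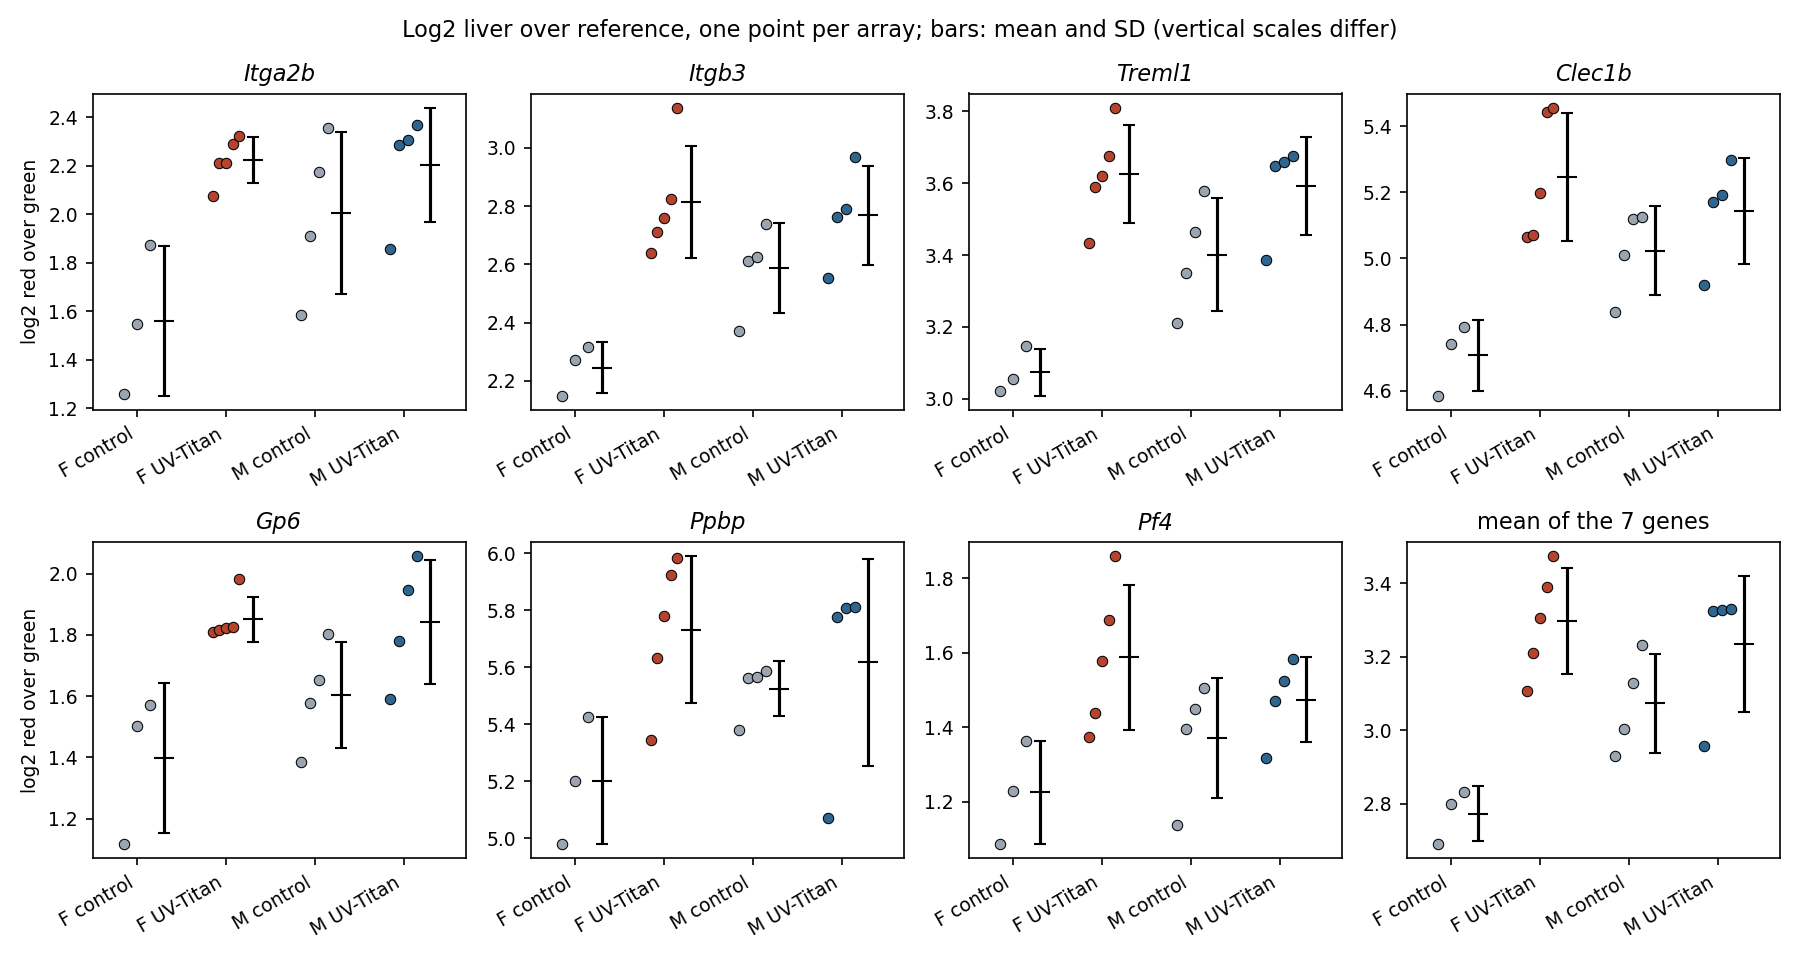
Log2 liver signal over reference signal of each gene on each array (points), with the mean and SD of each group (bars), and the mean of the 7 genes in the last panel. Female controls lie lowest in each panel by group mean, and every female UV-Titan array lies above every female control array except in the panel of Ppbp.

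Itga2b, the alpha chain found on megakaryocytes from an early stage, had log2 ratios of 1.55, 1.26 and 1.87 in female controls 25, 35 and 40. In female UV-Titan 2, 8, 10, 16 and 21 it had 2.21, 2.32, 2.29, 2.08 and 2.21. The exposed females lay close together above all 3 controls, which spread over more than 0.5 log2, control 35 lowest. The difference was 0.66 ± 0.16 log2 (SE), and 0.60 ± 0.19 log2 in red alone. Without female controls 25 and 35 the ratio difference was 0.35 log2. In males, controls 31, 33, 41 and 43 had log2 ratios of 1.58, 2.17, 1.91 and 2.35, and UV-Titan 3, 4, 5 and 17 had 2.31, 2.37, 2.28 and 1.85. The male groups overlapped, with 1 low array on each side, and differed by 0.20 ± 0.16 log2 (SE; limma adjusted p = 0.959; exact two-sided permutation p = 0.343). It was 0.057 log2 without male control 31 and 0.31 without male control 43 or male UV-Titan 17. In red alone the male difference was 0.03 ± 0.18 log2. Without 1 male array it ran from -0.11 (without control 31) to 0.18 (without UV-Titan 17), and was negative also without UV-Titan 4 (-0.083) or UV-Titan 3 (-0.036).

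Itgb3, the beta chain that also pairs with the alpha V integrin of other cells, had log2 ratios of 2.32, 2.15 and 2.27 in female controls 25, 35 and 40. It had 2.82, 3.14, 2.76, 2.64 and 2.71 in female UV-Titan 2, 8, 10, 16 and 21. The controls spanned less than 0.2 log2 and none reached the exposed females, of which array 8 was highest. The difference was 0.57 ± 0.11 log2 (SE), and 0.63 ± 0.13 in red alone, the largest of the 7 genes in that channel. Male controls 31, 33, 41 and 43 had 2.62, 2.61, 2.37 and 2.74, and male UV-Titan 3, 4, 5 and 17 had 2.76, 2.79, 2.97 and 2.55. Exposed males 3, 4 and 5 lay above all controls and array 17 among them, a difference of 0.18 ± 0.11 log2 (SE; limma adjusted p = 0.955; exact two-sided permutation p = 0.229). It was 0.11 log2 without male control 41 and 0.12 without male UV-Titan 5.

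The 2 Itgb3 probes gave different sizes. The transcript probe had log2 ratios of 1.01, 0.94 and 1.13 in female controls 25, 35 and 40 and 1.33, 1.35, 1.15, 1.34 and 1.25 in female UV-Titan 2, 8, 10, 16 and 21. The exposed females again lay above all controls, array 10 only just. The difference was 0.26 ± 0.09 log2 (SE) in the ratio, and 0.22 ± 0.20 in red alone, where the groups overlapped. In males the transcript probe differed by 0.06 ± 0.09 log2 (SE; limma adjusted p = 0.967). With this probe in place of the brighter one the female value of Itgb3 was thus below 0.5 times the 0.57 log2 given above, and the difference between the probes itself was not tested.

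Treml1, the granule receptor TLT-1, had closely grouped female arrays. Its log2 ratios were 3.05, 3.15 and 3.02 in female controls 25, 35 and 40, and 3.62, 3.81, 3.67, 3.43 and 3.59 in female UV-Titan 2, 8, 10, 16 and 21. The gap between the highest control and the lowest exposed female, 3.15 against 3.43, was wider than the whole range of the controls. The difference was 0.55 ± 0.10 log2 (SE), and the same size, 0.55 ± 0.12, in red alone. Male controls 31, 33, 41 and 43 had 3.35, 3.46, 3.21 and 3.58, and male UV-Titan 3, 4, 5 and 17 had 3.65, 3.68, 3.66 and 3.39. Arrays 3, 4 and 5 lay together above all male controls, and array 17 lay among them. The male difference was 0.19 ± 0.09 log2 (SE; limma adjusted p = 0.949; exact two-sided permutation p = 0.114).

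Clec1b encodes CLEC-2, a receptor that platelets share in mice with some myeloid cells. Its log2 ratios were 4.59, 4.74 and 4.79 in female controls 25, 35 and 40, and 5.20, 5.44, 5.46, 5.07 and 5.06 in female UV-Titan 2, 8, 10, 16 and 21. The groups did not overlap, and exposed females 8 and 10 stood above the rest. The difference was 0.54 ± 0.11 log2 (SE) by ratio and 0.39 ± 0.11 in red alone. In males the controls 31, 33, 41 and 43 had 5.13, 5.01, 4.84 and 5.12, and UV-Titan 3, 4, 5 and 17 had 5.30, 5.17, 5.19 and 4.92. Again 3 of 4 exposed males were above the controls, a difference of 0.12 ± 0.11 log2 (SE; limma adjusted p = 0.959; exact two-sided permutation p = 0.314), which was -0.023 log2 with median centring. It was 0.060 log2 without male control 41, 0.070 without male UV-Titan 3 and 0.20 without male UV-Titan 17.

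Gp6, the collagen receptor, is the gene with the dimmest reference. Its log2 ratios were 1.12, 1.50 and 1.57 in female controls 25, 35 and 40, and 1.82, 1.82, 1.98, 1.81 and 1.83 in female UV-Titan 2, 8, 10, 16 and 21. Exposed females 2, 8, 16 and 21 were almost equal, and all 5 were above the controls. The difference was 0.45 ± 0.12 log2 (SE) by ratio. In red alone, which does not use the reference, it was 0.33 ± 0.10, with controls from 7.99 to 8.12 and exposed females from 8.23 to 8.48. Male controls 31, 33, 41 and 43 had ratios of 1.38, 1.58, 1.65 and 1.80 log2, and male UV-Titan 3, 4, 5 and 17 had 1.95, 2.06, 1.78 and 1.59. The male groups overlapped, and Gp6 had the largest ratio difference of the 7 genes in males, 0.24 ± 0.11 log2 (SE; limma adjusted p = 0.949; exact two-sided permutation p = 0.171).

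Ppbp, whose protein yields the neutrophil attractant NAP-2, was the gene whose ratio overlapped between the female groups. Its log2 ratios were 4.98, 5.43 and 5.20 in female controls 25, 35 and 40, and 5.78, 5.92, 5.98, 5.34 and 5.63 in female UV-Titan 2, 8, 10, 16 and 21. Exposed female 16 was below control 35, and the difference was 0.53 ± 0.17 log2 (SE). In red alone the female controls had 12.61, 12.47 and 12.37 and the exposed females 12.82, 12.78, 12.95, 12.67 and 12.83 log2. There the groups did not overlap, and the difference was 0.33 ± 0.09 log2.

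The male values of Ppbp depended on the channel. By ratio, controls 31, 33, 41 and 43 had 5.56, 5.56, 5.38 and 5.59 log2, and UV-Titan 3, 4, 5 and 17 had 5.81, 5.78, 5.81 and 5.07. Array 17 was the lowest of all 8 males and arrays 3, 4 and 5 were the highest. The ratio difference was 0.09 ± 0.16 log2 (SE; limma adjusted p = 0.973; exact two-sided permutation p = 0.743), -0.18 from the processed signals of the scanner software and -0.057 with median centring. Without male UV-Titan 17 it was 0.27 log2, and without male control 41 or any 1 of the other 3 exposed males 0.027 to 0.045. In red alone the controls had 12.44, 12.59, 12.37 and 12.70 and the exposed males 12.88, 12.89, 12.78 and 12.73 log2, with no overlap. That difference was 0.29 ± 0.09 log2 (SE; limma adjusted p = 0.9997), and its exact two-sided permutation p of 0.0286 is the smallest that 70 relabellings can give. This p is not adjusted for the number of genes and scales, and it restates the lack of overlap. In green, where Ppbp is dim, the males differed by 0.23 ± 0.13 log2 in the same direction and the females by -0.16 ± 0.14.

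Pf4, the heparin-binding chemokine, had the smallest female difference. Its log2 ratios were 1.23, 1.36 and 1.09 in female controls 25, 35 and 40, and 1.69, 1.86, 1.58, 1.37 and 1.44 in female UV-Titan 2, 8, 10, 16 and 21. Exposed female 16 was only just above control 35, and the difference was 0.36 ± 0.11 log2 (SE). In red alone the controls had 14.39, 14.31 and 13.96 and the exposed females 14.67, 14.68, 14.50, 14.44 and 14.33 log2. Here exposed female 21 was below control 25, and the difference was 0.31 ± 0.11 log2. It was 0.17 without control 40, and 0.57 without controls 25 and 35, which leaves control 40 alone.

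In males Pf4 had ratios of 1.39, 1.50, 1.14 and 1.45 log2 in controls 31, 33, 41 and 43, and 1.52, 1.47, 1.58 and 1.32 in UV-Titan 3, 4, 5 and 17. The groups overlapped, at a difference of 0.10 ± 0.11 log2 (SE; limma adjusted p = 0.959; exact two-sided permutation p = 0.371), and at -0.059 with median centring. It was 0.025 log2 without male control 41, 0.066 without male UV-Titan 5 and 0.15 without male UV-Titan 17. In red alone the exposed males had 14.43, 14.46, 14.40 and 14.40 and the controls 14.30, 14.39, 14.09 and 14.29 log2. The exposed males differed by less than 0.1 log2 among themselves and lay above all controls, control 33 close below. The red difference was 0.16 ± 0.10 log2 (SE; limma adjusted p = 0.9997; exact two-sided permutation p = 0.0286, the smallest possible), and 0.097 without male control 41.

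Over both sexes, the male differences had the same sign as the female ones and were smaller in the ratio for each of the 7 genes. In males 7 of 7 genes had a higher mean ratio with UV-Titan, against 56.8% of all genes, and 7 of 7 a higher red mean, against 50.4%. The genes tended to vary together on the same arrays, so such counts are not 7 separate results. With median centring 4 of 7 were higher by ratio. The groups did not overlap for 0 of 7 in the ratio (1.9% of all genes) and for 2 of 7 in red, Ppbp and Pf4 (0.934%). The mean over the 7 genes was 0.16 log2 higher by ratio and 0.18 log2 in red. limma called 0% of all genes in males, by ratio and in red (0 of 18727 each, with 927 and 610 at an unadjusted p below 0.05), and its adjusted p for the 7 genes was 0.949 to 0.973 by ratio. Without male UV-Titan 17 the mean by ratio was 0.25 log2.

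**Figure D2:**
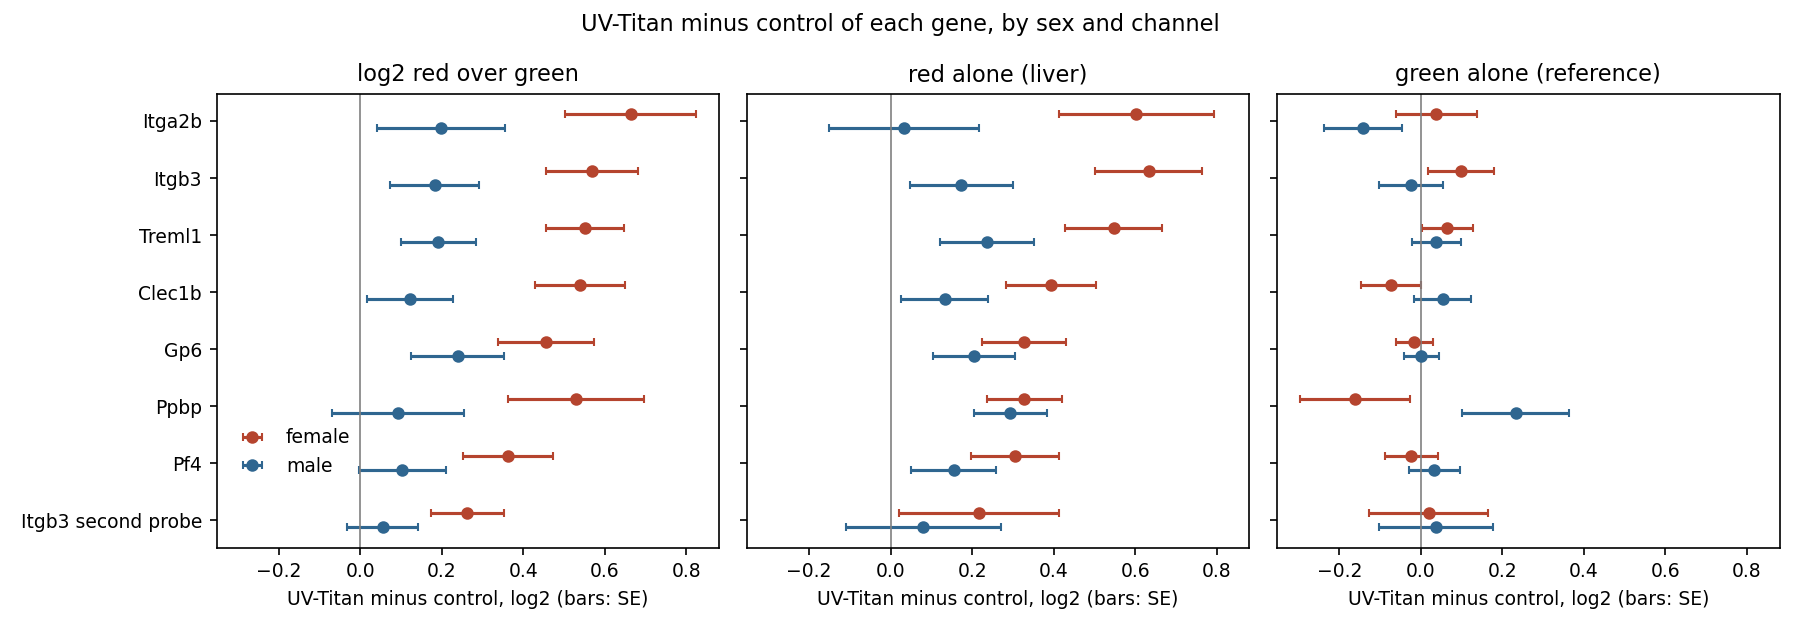
Difference between UV-Titan and control in log2 (points) with its standard error (bars) in females and males, for the ratio, the red liver channel and the green reference channel. In females the 7 genes lie between 0.31 and 0.63 in red and between -0.16 and 0.10 in green, and in males between 0.03 and 0.29 in red. The bottom row is the transcript probe of Itgb3, which in females lies at 0.22 ± 0.20 in red.

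The female difference was larger in the liver channel than in the reference channel. The mean over the 7 genes differed by 0.45 log2 in red and by -0.01 in green, and in green 3 of 7 genes were higher with UV-Titan, against 54% of all genes (in males 5 of 7, against 48.1%). The red value was near the ratio for Itga2b, Itgb3, Treml1 and Pf4. It was lower in red for Clec1b (0.39 against 0.54), Gp6 (0.33 against 0.45) and Ppbp (0.33 against 0.53), and the green value of Ppbp was -0.16.

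The group means came in the same order for all 7 genes by ratio: female control lowest, then male control, male UV-Titan and female UV-Titan. The mean over the genes was 2.77 ± 0.07, 3.07 ± 0.13, 3.23 ± 0.19 and 3.30 ± 0.14 log2 (SD, n = 3, 4, 4 and 5) in that order. Of all genes 7.28% had this order. Genes chosen by a higher female UV-Titan than female control mean tend to have those groups at the ends, so the order is a description, and nothing is read from these shares. Male UV-Titan and female UV-Titan differed by 0.063 log2 and the 2 male groups by 0.16 log2, and male control was above female control by 0.30 log2. Both female groups entered the choice of the genes. Gaps to them, and which arrays lie lowest, are therefore also only described. In red alone all 7 genes had female control lowest and male control next, as did 8.63% of all genes, but the 2 exposed groups came in the full order for 4 of 7 (4.2%). In red the mean of male control was above that of female control by 0.23 log2 over the 7 genes. For Ppbp and Pf4 this gap was only 0.04 and 0.05 log2. The female controls accounted for the lowest array of all 16 for each gene by ratio, with control 25 lowest for 3 genes, control 35 for 2 and control 40 for 2. In red the lowest array of Ppbp was male control 41.

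The female effect minus the male effect was positive for all 7 genes and, since the female part chose them, is also only described. By ratio it ran from 0.22 ± 0.16 log2 (SE) for Gp6 to 0.47 ± 0.22 for Itga2b. In red it was 0.57 ± 0.27 for Itga2b and 0.46 ± 0.18 for Itgb3, and 0.03 ± 0.13 for Ppbp. For Ppbp the 2 sexes were thus 0.33 and 0.29 log2 in red and 0.53 and 0.09 by ratio. limma called 0% of all genes for this difference by ratio (0 of 18727, with 804 at an unadjusted p below 0.05). The comparison of the sexes, averaged over exposure, uses the same female arrays and is also only described. Males had higher ratios for 7 of 7 genes, by 0.02 log2 (Pf4) to 0.21 log2 (Itga2b). Of all genes limma called 0.0481% in that comparison by ratio and 0.0374% in red.

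Slides did not hold the groups equally, so the differences were also taken within slides that held 1 array of each group. In females all 7 genes were higher with UV-Titan on slides 1, 4 and 5, by ratio and in red. Where every exposed female lay above every control, as for 6 of 7 genes on each scale, this sign was fixed in advance. The slides reuse the arrays by which the genes were chosen, so the female signs are a description. The mean over the 7 genes was 0.51, 0.56 and 0.42 log2 higher by ratio, and 0.59, 0.55 and 0.16 in red. On slide 5 the red differences of Clec1b, Ppbp and Pf4 were near 0, at 0.05, 0.06 and 0.05 log2. In males the slides 1, 2 and 3 gave means of 0.40, 0.32 and 0.09 log2 by ratio and 0.46, 0.28 and 0.08 in red. All 7 genes were higher on slides 1 and 2, and 6 of 7 on slide 3, where Itga2b was at -0.05 by ratio. With slide as a block in the fit the mean over the genes was 0.48 log2 in females and 0.23 in males by ratio.

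**Figure D3:**
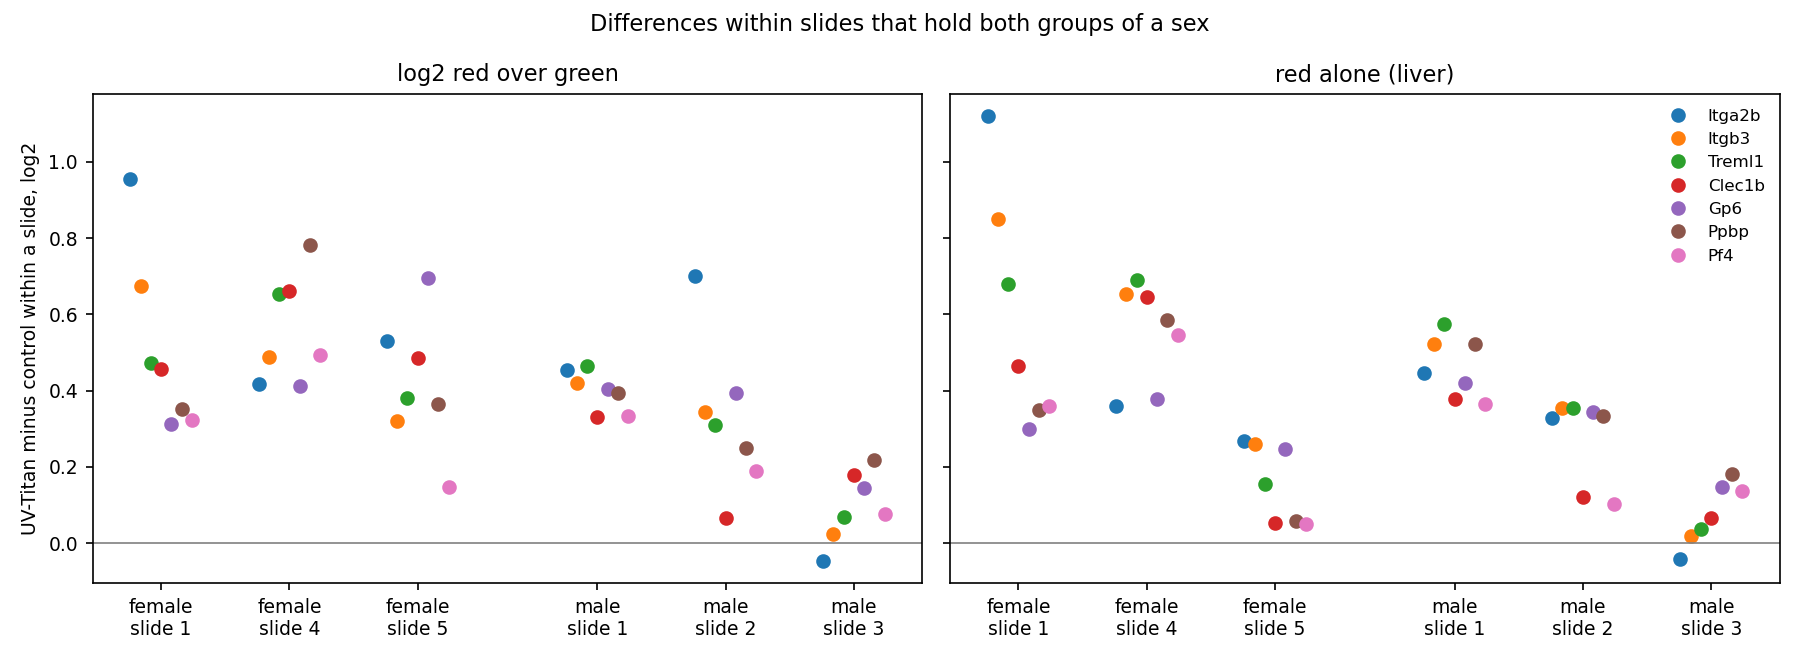
UV-Titan minus control of each gene in log2, within the slides that held both groups of a sex, 1 array against 1, by ratio and in red alone. In females all points lie above 0, and those of slide 5 are lower in red than by ratio, while in males those of slide 3 lie close to 0.

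Slide 5 held the lowest array of 3 groups by the mean ratio of the 7 genes: female control 25 (2.69 log2), female UV-Titan 16 (3.11) and male UV-Titan 17 (2.96). In red, female UV-Titan 16 (11.61 log2) and male UV-Titan 17 (11.55) were again the lowest of their groups, while female control 25 (11.45) was the highest of its group. The part of the slide in these values was not tested.

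Most of the genes varied together between animals of the same group. After each group's mean was taken away, Pearson's r over the 16 arrays had a median of 0.58 over the 21 gene pairs by ratio and 0.67 in red. Treml1 followed the mean of the other 6 genes most closely, at r = 0.91 by ratio and 0.95 in red. Clec1b and Ppbp had r = 0.84 by ratio and 0.89 in red. The values of a pair come from the same 16 hybridisations, and so share RNA, dye and array.

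Gp6, Itga2b and Pf4 had the lowest r with the mean of the other 6 genes on both scales, at 0.50, 0.55 and 0.66 by ratio and 0.73, 0.70 and 0.26 in red. Pf4 had r = 0.86 with Treml1 and 0.78 with Itgb3 by ratio, but 0.39 and 0.37 in red. Gp6 had r = 0.07 with Itgb3 by ratio and 0.67 in red. The 2 integrin chains had r = 0.51 by ratio and 0.78 in red. The neighbouring genes Ppbp and Pf4 had r = 0.70 and 0.48.

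**Figure D4:**
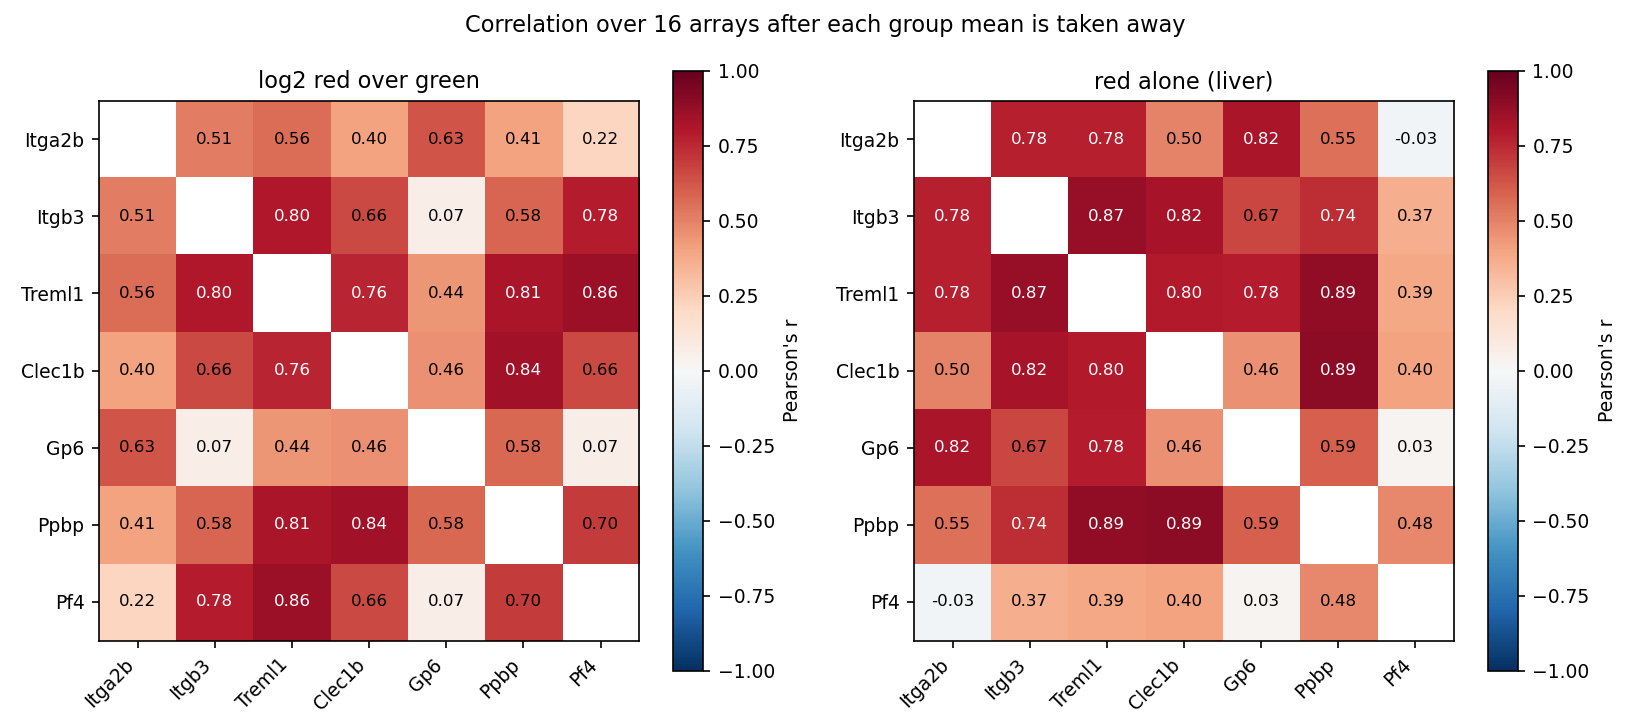
Pearson's r of each pair of genes over 16 arrays after the group means were taken away, by ratio and in red alone. By ratio the pairs of Treml1 with Itgb3, Ppbp and Pf4 are at 0.80 to 0.86, and in red Pf4 has r below 0.5 with each of the others.

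The 10 other genes whose ratio followed the mean of the 7 most closely had r from 0.86 to 0.90 over 16 arrays, where the median over 18693 genes was 0.026. These 10 were led by Lrg1, a leucine-rich glycoprotein secreted by liver and neutrophils (r = 0.90), Aim1 (0.89) and Cpn2, a subunit of the plasma enzyme carboxypeptidase N (0.88). The likeness of most was lower in red: 0.68 for Lrg1, 0.34 for Aim1 and 0.50 for Cpn2. Kcnk6, a potassium channel gene, was among the 10 most alike on both scales, at 0.86 by ratio and 0.81 in red. By red alone the closest gene was Ripor3 (r = 0.87), and Ngp, a granule protein of developing neutrophils, had 0.82 in red and 0.64 by ratio.

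Lists of related genes, chosen with earlier results of these data known and measured on the same arrays, are described beside the 7 genes. With the main settings limma called 0 genes of any list in either sex. The GPIb-IX-V receptor and its ligand Vwf, by which platelets first adhere, were higher in exposed females for 5 of 5 genes, with a median of 0.58 log2 by ratio and 0.51 in red. The ratio difference was 0.62 ± 0.13 log2 (SE) for Gp1ba, 0.60 ± 0.11 for Gp5, 0.49 ± 0.09 for Gp9 and 0.47 ± 0.08 for Vwf. For all 5 the female groups did not overlap on either scale, against 3.23% of all genes by ratio and 1.08% in red. Their mean had r = 0.85 by ratio and 0.67 in red with the mean of the 7 genes within groups. Leaving out the 2 arrays on which the mean of the 7 genes, less its group mean, lay furthest from its median, r was 0.85 and 0.38. The 5 are thus not independent of the 7, and their counts are a description. In males 5 of 5 were higher, with a median of 0.17 log2.

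Lists of genes that act below the receptors had smaller medians. Of the ITAM and integrin signalling list 21 of 22 genes had a higher mean ratio in exposed females, at a median of 0.21 log2, with Fcer1g, the signalling chain of glycoprotein VI, at 0.22 ± 0.09 and Plcg2, the phospholipase below Syk, at 0.23 ± 0.08 (SE). Rasgrp2, which activates the integrin through Rap1, was at 0.29 ± 0.12 by ratio and 0.07 ± 0.10 in red. The G protein coupled and ion channel receptors had 11 of 14 genes higher at a median of 0.14 log2. F2r, a thrombin receptor, was at -0.03 ± 0.14. The median over all genes was 0.021 log2.

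Granule cargo and granule formation genes were higher for 19 of 23, at a median of 0.10 log2, with Clu at 0.32 ± 0.12 and Sparc at 0.06 ± 0.10 (SE). The megakaryocyte cytoskeleton and enzyme list was higher for 17 of 17 tested genes by ratio, at a median of 0.20 log2, and for 14 of 17 in red. It holds Gp1bb, which is also in the GPIb-IX-V list. Transcription factors of the lineage and the thrombopoietin pathway were higher for 17 of 19 genes at a median of 0.09 log2 by ratio and 0.03 in red. Nfe2, needed for platelet release, was at 0.27 ± 0.12 by ratio and 0.11 ± 0.19 in red, and Tal1 at 0.09 ± 0.14 and 0.03 ± 0.19.

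The ligands and the nearest relatives of the 7 genes varied in size and channel. Fibrinogen, the ligand of the integrin, is made by hepatocytes: Fga, Fgb and Fgg were at 0.63 ± 0.25, 0.58 ± 0.22 and 0.89 ± 0.35 log2 by ratio, and at 0.13, 0.06 and 0.08 in red. Other integrins had 13 of 15 genes higher at a median of 0.13 by ratio and 0.02 in red, with Itgb1 at 0.02 ± 0.10 by ratio. TREM, C-type lectin and collagen receptor relatives had 14 of 17 higher at 0.12 and 0.05, with Treml4, from the gene family of Treml1, at 0.05 ± 0.16 and -0.16 ± 0.14. Of CXC chemokine relatives 6 of 10 were higher, and Cxcl10, an interferon-induced member, was lower at -0.46 ± 0.18 log2 by ratio and -0.53 ± 0.19 in red.

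Markers of other cells stood beside the 7 genes in different ways. Granulocyte markers were higher in exposed females for 20 of 20 tested genes, with a median of 0.49 log2 by ratio and 0.37 in red. Mpo was at 0.52 ± 0.18 log2, Camp at 0.43 ± 0.16, S100a8 at 0.52 ± 0.26 and S100a9 at 0.61 ± 0.26 (SE). The mean ratio of the list ran from 3.18 to 3.64 log2 in female controls and from 3.56 to 4.02 in exposed females, so that the groups overlapped. The list mean had r = 0.79 by ratio and 0.66 in red with the 7 genes within groups. Leaving out the 2 arrays on which the mean of the 7 genes lay furthest out, r was 0.57 and 0.48. In males the median of the granulocyte list was 0.08 log2 by ratio and 0.17 in red.

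Hepatocyte markers were higher for 17 of 17 genes by ratio in exposed females, at a median of 0.49 log2, but at 0.03 in red and -0.32 in green. In the 7 genes the green mean differed by -0.01. In males they had a median of -0.16 by ratio. Macrophage and Kupffer cell markers had 17 of 18 higher at 0.22 by ratio and 0.06 in red, and markers of the endothelium, which also makes Vwf, 14 of 15 at 0.19 and 0.09. Erythroid markers had 11 of 14 higher at 0.19 by ratio and were at -0.06 in red. Lymphocyte and NK markers had 12 of 17 higher at 0.07, and mast cell and basophil markers 7 of 9 at 0.14 by ratio.

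**Figure D5:**
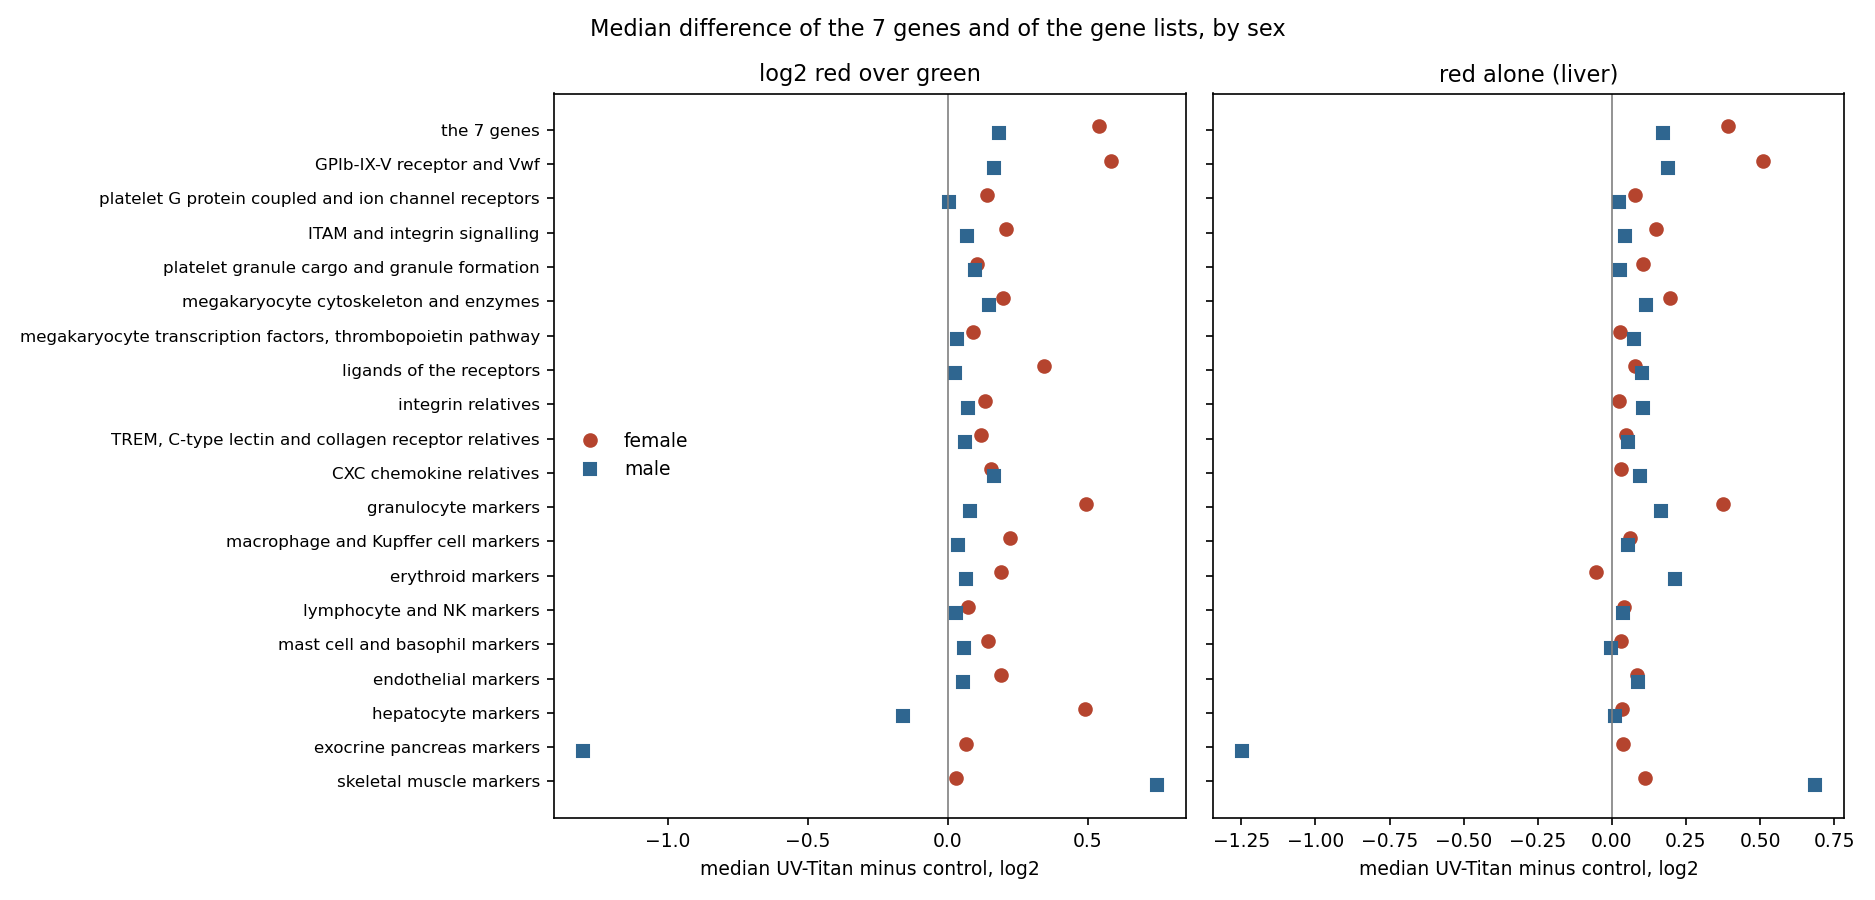
Median difference between UV-Titan and control in log2 over the tested genes of each list, in females (circles) and males (squares), by ratio and in red alone, with the 7 genes in the top row. In females the 7 genes (0.54 and 0.39), the GPIb-IX-V list (0.58 and 0.51) and the granulocyte markers (0.49 and 0.37) have the highest medians in red, and hepatocyte markers are at 0.49 by ratio and 0.03 in red.

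Pancreas and muscle markers varied between male arrays. The mean ratio of the pancreas list ran from 0.61 to 3.62 log2 in male controls and from 0.58 to 0.80 in exposed males, and that of the muscle list from -1.22 to 1.35 in exposed males. Within groups their means had r = -0.02 and 0.15 by ratio with the mean of the 7 genes. Without male controls 31 and 33 and male UV-Titan 5 the mean male difference of the 7 genes was 0.12 log2 by ratio and 0.16 in red.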

How the data were processed

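Per the labels, 200 ng of RNA per liver was amplified, labelled and read on Agilent mouse oligonucleotide arrays with Feature Extraction 9.5.3.1. The deposited scanner files give mean and background intensity per spot and channel, per the file headers, and there is a table of log2 ratios from the authors, of which scale and direction were found from the scanner signals; its normalisation is not given in the sources used here. For the ratio, limma 3.58.1 (R 4.3.3) corrected background by normexp with an offset of 50, then ran loess in each array, giving control spots no weight. Outlier spots (90 to 135 per array) were left out. Each channel alone was normexp-corrected and quantile-normalised. Probes had to exceed background clearly in red on 3 or more arrays to be tested, and the brightest represented its gene. Genes were named by accession through a RefSeq table (GRCm38.p6; 12183 of 18727), otherwise as on the array. A limma model with 4 group means was fitted to the 16 arrays, with two-sided tests, Benjamini-Hochberg adjustment and a threshold of 0.05. The model was run on simulated log ratios with independent noise for each gene and array. That simulation held no slides and no genes that vary together, so it does not cover those features of the data. Male values were also given an exact permutation test, with p-values not adjusted for the number of genes and scales. Named genes are the 7, up to 4 genes per list with the highest mean red signal, and the 10 most alike; Gp1bb, Ripor3, Ngp and the genes given with other settings were named after their values were seen. The genes, the lists and the comparisons were chosen with earlier results of these data known. The number of arrays limits the precision.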

Additional observations from a re-analysis of the deposited data

Results flagged for a closer look

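Of 42 sets of values (each gene, in the ratio and in red alone, in the 3 groups of 4 or 5 arrays) 6 held an array far from the rest of its group, and about 5% would by chance. The sets share arrays, and the genes tended to vary together, so the 6 are not separate results. Of these, 3 were the ratios of male UV-Titan 17, the lowest of its group for Itga2b (1.85 log2), Treml1 (3.39) and Ppbp (5.07). Male control 41 was lowest for Ppbp by ratio (5.38 log2), while the other 3 male controls lay close together. Female UV-Titan 10 was highest for Gp6 by ratio (1.98 log2), where the other 4 were almost equal. Female UV-Titan 16 was lowest for Treml1 in red (11.69 log2). Male UV-Titan 17 and female UV-Titan 16 lay on the same slide, which held no male control, and whether the slide had a part in their values was not tested.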

How the results depend on the processing

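In every alternative fit the 7 genes had a higher mean in exposed females. This held for 224 of 224 values by ratio and 217 of 217 in red. In males 220 of 224 and 212 of 217 were higher. Fits that left out only arrays of the other sex could not change a difference. Nor could fits of 1 sex alone or, by ratio, Aquantile scaling. The genes were also chosen by the female difference, so these counts are no test of it. Median centring, which puts the median of all genes at 0.27 log2 in females and -0.09 in males by ratio, gave a mean over the 7 genes of 0.81 log2 by ratio and 0.69 in red in females. Relative to the median of all genes their median was then 0.58 in females and 0.12 in males. It left 4 of 7 genes higher in males by ratio, with Clec1b at -0.023, Ppbp at -0.057 and Pf4 at -0.059. The processed signals of the scanner software gave -0.18 for male Ppbp and 1 gene called in males. In females limma called 1 gene, Ltb4r1, with slide or scan day as a block, and 6 genes with array weights. Those 6 held Treml1, 1 of the 7 genes. As the 7 were chosen by this same comparison, its call is no test. Leaving out single arrays gave 0 to 1 genes called in females, the 1 being Gp1bb without female UV-Titan 21 and the clone AK076954 without male control 43. Male Itga2b in red was -0.075 without male controls 31 and 33 and -0.033 also without male UV-Titan 5. Leaving out single arrays it ran from -0.11 (without male control 31) to 0.18 (without male UV-Titan 17), and was also below 0 without male UV-Titan 4 (-0.083) or 3 (-0.036). The cause was not tested for any of these. The alternatives of red after loess and Aquantile and of the Itgb3 transcript probe were chosen after seeing the data. No paired analysis was possible because the groups share no replicate number; arrays of the same slide were compared within slides and with slide as a block instead. Signal over background limits the ratios of Gp6, Clec1b and Ppbp most, which had the dimmest reference signals of the 7.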
